A study of Mus musculus with 36 samples.

Results

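The genes described here are 10 apolipoprotein and lipoprotein assembly genes of the mouse liver: Apoa1, Apoa2, Apoa4, Apoa5, Apob, Apoc1, Apoc2, Apoc3, Apoe and Mttp. They were taken by name from the deposited expression table, each name matched 1 row, and they are 10 of 49315 genes in that table and 10 of the 16638 that passed the filter for testing. Liver polyA RNA was sequenced from 36 male mice aged 11 to 12 weeks, in 9 groups of 4. Their liver X receptor alpha (LXRalpha) had tryptophan (W) or phenylalanine (F) at residue 441, made by CRISPR in the gene itself and so not limited to hepatocytes, as W/W controls, W/F heterozygotes or F/F homozygotes. The series text pairs the receptor's name with the symbol Nr1h2, while the usual symbol of LXRalpha is Nr1h3. Gene-level values cannot check a change of a single residue. Each genotype was kept on normal chow, on a diet that promotes metabolic dysfunction-associated steatohepatitis (MASH; Teklad TD.96121, rich in fat and cholesterol) with vehicle, or on that diet with T0901317, a synthetic agonist of LXRs. The diet lasted 4 weeks, and vehicle or 10 mg/kg T0901317 was given daily by gavage over the last 2 weeks. The chow mice were a separate cohort and are not described as gavaged, so diet, gavage and cohort cannot be told apart in any comparison with them.

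Lipoproteins carry triglyceride and cholesterol through the blood. In the hepatocyte, the microsomal triglyceride transfer protein encoded by Mttp loads lipid onto apolipoprotein B (Apob) as it is made, which forms the very low density lipoprotein (VLDL). ApoA-I and apoA-II (Apoa1, Apoa2) are the main proteins of high density lipoprotein (HDL). ApoA-IV and apoA-V (Apoa4, Apoa5) take part in triglyceride transport, apoC-II activates lipoprotein lipase, and apoC-I and apoC-III (Apoc1, Apoc3) slow the lipolysis and uptake of triglyceride-rich particles. ApoE is the ligand through which the liver takes up remnant particles. LXRs are nuclear receptors for oxidised cholesterol, and Apoe and the Apoc genes beside it are known LXR targets.

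From the spacing of low values, library depth was recovered as 18.0 M to 35.7 M reads, with a median of 23.8 M. Values are transcripts per 1000000 transcripts (TPM), which correct for gene length and library total, so levels of different genes can be compared. The TPM of a library sum to a constant, and the median gene differed between groups by up to 0.70 on the log2 scale. Whether this is widespread change or a shift of the scale was not tested. Each fold change is therefore given as deposited and again after each library was divided by the median of its gene ratios to the average library, here called rescaling. Levels of single livers, and statements on whether groups overlap, are as deposited unless rescaling is named. Fold changes are differences of log2(TPM + 1) ± SE from limma, a gene is called where its p, adjusted by Benjamini-Hochberg over all 16638 genes, is under 0.05, and values after ± beside TPM are SD with n = 4. Library W/F T0901317 replicate 2 stood apart from its group on the first principal component, at 1.00 against 44.9 to 54.4. Its omission changed no call among the 10 genes.

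Hepatocyte markers (8 genes, among them Alb and Ttr) summed to 43835 to 95985 TPM over the 36 libraries; this list holds some of the most abundant liver transcripts. The sum was 58293 to 82484 TPM in W/W vehicle livers, 62792 to 72309 TPM in W/F vehicle livers and 43835 to 47671 TPM in F/F vehicle livers. Alb was the largest part of it in each of these groups, with means of 49754, 41188 and 19352 TPM in that order. Trf and Ahsg went the other way. Trf had means of 2192, 5859 and 5810 TPM and Ahsg of 8988, 13228 and 16235 TPM, again in that order. The remaining markers of the list had lower means in both mutants than in W/W. Summed levels of markers of other cells differed with genotype on the MASH diet. The 10 macrophage and Kupffer cell markers summed to 260.3 to 421 TPM in W/W, 3190.2 to 4301 TPM in W/F and 3617 to 4709.8 TPM in F/F vehicle livers, and to 278 to 587 TPM, 200.3 to 1410.5 TPM and 1504 to 2327 TPM with T0901317. Of this list, Lyz2 and Gpnmb had the highest F/F vehicle means, at 3228 and 519 TPM, against 91.3 and 1.18 TPM in W/W. The Kupffer cell genes Clec4f, Cd5l, Vsig4 and Timd4 went the other way, with means of 72.3, 80.5, 23.9 and 6.15 TPM in W/W vehicle livers and of 0.354, 1.58, 1.13 and 0.101 TPM in those of F/F. In W/F vehicle livers the means of these genes were 45.0, 263, 34.0 and 0.79 TPM. Cd5l and Vsig4 thus lay above W/W there, and Clec4f and Timd4 below. The 8 stellate cell and fibroblast markers summed to 98.0 to 159 TPM in W/W and 1223 to 1545 TPM in F/F vehicle livers. The 5 cholangiocyte markers summed to 54.0 to 61.4 TPM in W/W, 1163 to 1589.9 TPM in W/F and 2908 to 3554 TPM in F/F vehicle livers. Most of this sum was Spp1, with means of 48.7, 1243 and 3174 TPM in the same order. Krt7, Krt19, Epcam and Sox9 had means of 0.255, 1.51, 2.31 and 3.76 TPM in W/W vehicle livers. In F/F vehicle livers they were at 5.05, 35.2, 58.8 and 39.4 TPM. The part of these shifts in the results below was not tested, and in whole liver fewer cells of a type and less RNA per cell cannot be told apart. Several of the 10 genes are also expressed in the intestine; of the enterocyte markers, Lct, Sis and Alpi stayed at or below 0.129, 0.481 and 0.552 TPM in every library. The enterocyte sum was nearly all Fabp2, a fatty acid binding protein, which was listed at 31.3 to 638 TPM. Its vehicle means were 465, 117 and 82.7 TPM in W/W, W/F and F/F livers. The remaining marker, Vil1, went the other way, with means of 0.129, 1.27 and 2.97 TPM in that order and at most 3.32 TPM in any library. Neutrophil markers (4 genes) summed to 135 to 398 TPM in F/F and 2.32 to 7.14 TPM in W/W vehicle livers. Over all libraries, endothelial markers (5 genes) summed to 41.8 to 96.4 TPM, lymphocyte markers (6 genes) to 1.03 to 14.4 TPM and erythroid markers (3 genes) to 184 to 894 TPM, and adipocyte markers (4 genes) to at most 0.756 TPM. The 4 pancreatic acinar markers summed to 115 TPM in 1 W/W vehicle library and to at most 0.508 TPM outside that group.

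By the mouse annotation GENCODE M21 on GRCm38, the build that the submitters' processing notes name, 4 of the genes form a cluster on chromosome 9 and 3 lie in a cluster on chromosome 7. All are protein-coding. In the first cluster Apoa1 lies at chr9:46228580-46230466, Apoc3 at chr9:46232933-46235636, Apoa4 at chr9:46240696-46243459 and Apoa5 at chr9:46268633-46271919, with Apoc3 on the minus strand. In the second, all on the minus strand, Apoe lies at chr7:19696109-19699188, Apoc1 at chr7:19689481-19692660 and Apoc2 at chr7:19671579-19677941, with Apoc4 between the last and Apoc1. Apoa2 lies at chr1:171225054-171226379 (plus strand), Apob at chr12:7977648-8016835 (plus strand) and Mttp at chr3:138089854-138144968 (minus strand). Reads of Apoc2 are uncertain, since 79.5% of its exon bases are also exons of the gene Gm44805 on the same strand. Apoa4, Apoa5 and Mttp overlap genes on the opposite strand, and the sources used here do not state whether counting used strand. Apoa4 shared 34.9% of its exon bases with Gm47528, listed at no more than 9.47 TPM, and 34.8% with Gm10680, listed at no more than 0.588 TPM. Apart from Apoc2, the genes shared no 50-base stretch of same-strand transcript sequence with another annotated gene.

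RefSeq promoter sequences (GRCm38.p6) were found for 8 of the 10 genes. The stretches just upstream of 5 genes are shown because Apoa1, Apoa4 and Apoa5 are neighbours of which, with T0901317 in W/W livers, Apoa1 fell and Apoa4 rose while Apoa5 was not called, and because Apoa2 and Apoe were among the 3 most abundant members. They lie at chr9:46228380-46228579, chr9:46240594-46240695, chr9:46268358-46268607 and chr1:171224804-171225053 on the plus strand and chr7:19699189-19699438 on the minus strand, and run 5′ to 3′. Those of Apoa5, Apoa2 and Apoe end just before the RefSeq start. Those of Apoa1 and Apoa4 are shorter because only bases outside the annotated transcripts are shown. They end just before the gene starts given above and may not reach the RefSeq start. Capitals mark TATAAA.
Apoa1: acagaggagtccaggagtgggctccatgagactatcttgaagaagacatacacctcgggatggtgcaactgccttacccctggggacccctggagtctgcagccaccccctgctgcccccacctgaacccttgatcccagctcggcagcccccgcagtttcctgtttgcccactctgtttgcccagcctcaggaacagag
Apoa4: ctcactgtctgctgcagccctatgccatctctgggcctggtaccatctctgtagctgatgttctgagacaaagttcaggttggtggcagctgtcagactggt
Apoa5: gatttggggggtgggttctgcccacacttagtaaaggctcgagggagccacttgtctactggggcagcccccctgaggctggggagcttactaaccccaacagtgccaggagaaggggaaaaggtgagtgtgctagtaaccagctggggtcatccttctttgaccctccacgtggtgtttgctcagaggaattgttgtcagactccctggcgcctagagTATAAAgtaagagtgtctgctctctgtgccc
Apoa2: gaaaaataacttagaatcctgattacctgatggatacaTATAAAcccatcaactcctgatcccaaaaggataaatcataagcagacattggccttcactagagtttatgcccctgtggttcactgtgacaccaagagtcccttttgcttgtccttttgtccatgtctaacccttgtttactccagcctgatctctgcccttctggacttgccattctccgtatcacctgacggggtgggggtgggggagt
Apoe: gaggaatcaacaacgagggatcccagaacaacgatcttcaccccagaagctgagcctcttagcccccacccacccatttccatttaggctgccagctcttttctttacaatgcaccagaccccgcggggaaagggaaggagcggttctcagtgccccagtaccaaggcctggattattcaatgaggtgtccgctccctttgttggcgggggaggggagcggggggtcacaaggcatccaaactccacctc
The 250 bases before the first listed start of each gene were searched on both strands for exact matches to 5 motifs. The nuclear receptor half-site AGGTCA, which the next 2 motifs contain, was in the window of Apoc2, and in 13.8% of the 27025 promoters of the table. Its direct repeat with a spacer of 4 bases (DR4), the form that LXRs are known to bind, was in none of the 8 and in 0.0111% of all promoters. The direct repeat with a spacer of 1 base (DR1) was in none and in 0.0370% of all, and CAAAGTCCA, an element that HNF4A is known to bind, was in none and in 0.381% of all. Exact matches to these longer motifs are so rare that finding none in 8 windows says little. TATAAA was in those of Apoa2, Apoa5 and Apob, and in 13.0% of all promoters. In the Apoa5 stretch shown it begins 31 bases before the end, and in that of Apoa2 212 bases before the end.

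The 10 genes together took 4.28% to 8.31% of all TPM by group mean. The share was 6.20% ± 0.735 in W/W chow, 8.31% ± 0.524 in W/W vehicle and 7.49% ± 0.378 in W/W T0901317 livers (SD, n = 4). In W/F livers it was 5.17% ± 0.719, 5.18% ± 0.167 and 7.81% ± 0.810 in the same order, and in F/F livers 4.37% ± 0.252, 4.28% ± 0.50 and 6.15% ± 0.491. On vehicle the W/W libraries thus lay at 7.63% to 8.91%, above all W/F libraries at 4.99% to 5.38% and all F/F libraries at 3.86% to 4.96%. Apoe, Apoa2 and Apoa1 were the most abundant members. Ranked among all genes by group mean, Apoe stood between 3 and 8, Apoa2 between 4 and 14 and Apoa1 between 8 and 12. Apoc1 ranked between 17 and 69, Apoc3 between 49 and 124, Apoa5 between 93 and 152 and Apob between 117 and 232. Mttp ranked between 699 and 1424, Apoa4 between 86 and 1694 and Apoc2 between 4433 and 6100. The highest group mean was 23.3 times the lowest for Apoa4, 4.46 times for Apoc1, 3.22 times for Apoa2, 2.66 times for Apoc3 and 2.15 times for Apoe. For the other 5 genes it was 1.44 to 1.84 times.

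**Figure D1:**
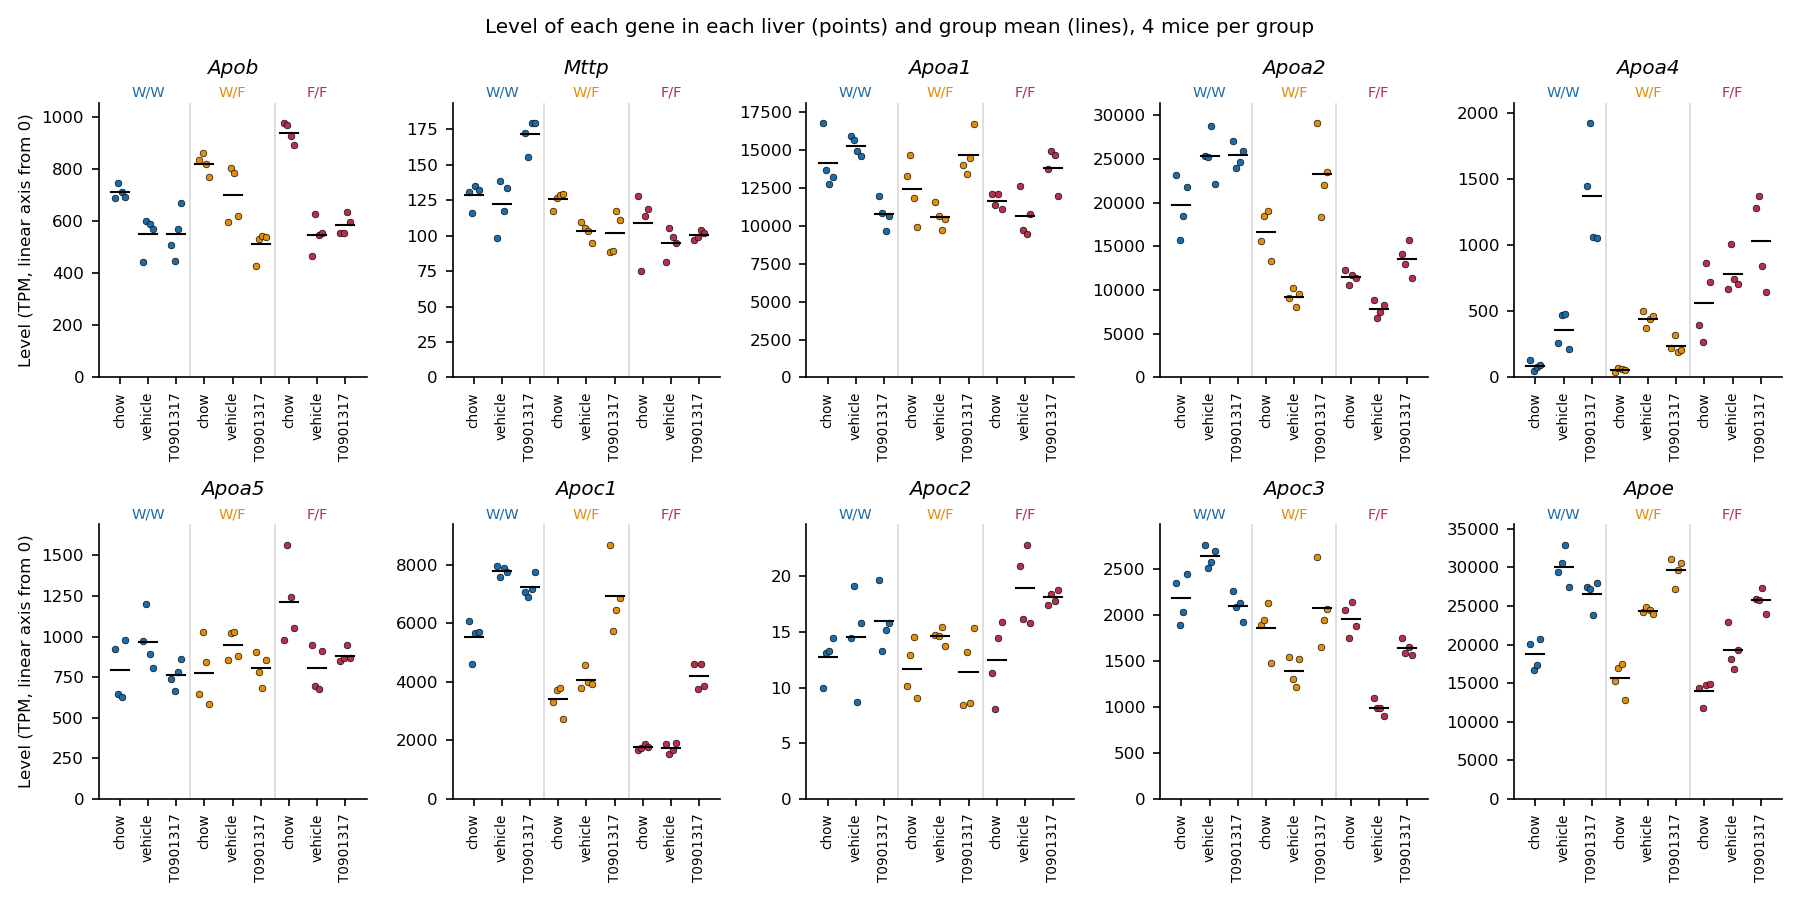
Level in TPM (linear vertical axis from 0) of each of the 10 genes in each of the 36 livers, by genotype and treatment. Points are mice and lines are group means. Apoa4 was highest in W/W livers with T0901317, at 1056 to 1923 TPM, and Apoc1 was lowest in F/F livers on chow or vehicle, at 1530.3 to 1911 TPM on vehicle.

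Apob, the structural protein of VLDL, fell with the MASH diet in F/F livers under both scalings, in W/W livers as deposited only and in W/F livers after rescaling only. It stood at 690.0, 745, 713 and 693 TPM in W/W chow livers and 443, 599, 589.9 and 569 TPM in W/W vehicle livers. All 4 chow livers were above all 4 vehicle livers. The log2 change was -0.38 ± 0.11 (adjusted p = 0.0254), and -0.25 ± 0.11 after rescaling (adjusted p = 0.134). The adjusted p as deposited was 0.154 without W/W vehicle replicate 1 and 0.0779 without W/W chow replicate 2, so this call rests on single libraries. F/F livers held 976, 967, 925 and 891 TPM on chow and 464, 629, 547 and 553 TPM on vehicle. The F/F chow livers were the highest of the study and did not overlap the vehicle livers, and the change was -0.78 ± 0.11 (adjusted p = 1.03e-06), and -1.13 ± 0.11 after rescaling (adjusted p = 2.75e-09). In W/F livers the change was -0.24 ± 0.11 (adjusted p = 0.0691), and -0.74 ± 0.11 after rescaling (adjusted p = 1.86e-06). Without W/F vehicle replicate 2 or 3 its adjusted p as deposited was 0.0283 or 0.0383.

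Between genotypes the sign of the Apob difference depended on the scaling. On vehicle, W/F livers were at 596, 805, 783 and 620.4 TPM, with 3 of the 4 above every W/W vehicle liver. The W/F difference was 0.35 ± 0.11 (adjusted p = 0.00797) as deposited but -0.31 ± 0.11 (adjusted p = 0.0195) after rescaling, and without W/W vehicle replicate 1 the former had an adjusted p of 0.0612. For F/F it was 0.00 ± 0.11 (adjusted p = 0.986) as deposited and -0.86 ± 0.11 (adjusted p = 9.22e-08) after rescaling. On chow the F/F difference was 0.40 ± 0.11 (adjusted p = 0.00465) as deposited and 0.02 ± 0.11 (adjusted p = 0.911) after rescaling, and that of W/F was 0.21 (0.18 after rescaling), not called. With T0901317, W/F livers had 428, 531, 544 and 539 TPM, all below the W/F vehicle livers. That change was -0.45 ± 0.11 (adjusted p = 0.000909) as deposited and 0.15 ± 0.11 (adjusted p = 0.274) after rescaling. In W/W and F/F livers the change was -0.01 (-0.08 after rescaling) and 0.10 (0.37 after rescaling), of which only the rescaled F/F value was called (adjusted p = 0.0232). With T0901317 the differences from W/W were -0.10 (-0.08 after rescaling) for W/F and 0.11 (-0.42 after rescaling) for F/F, of which only the rescaled F/F value was called (adjusted p = 0.00283).

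Mttp, whose product lipidates apoB, rose with T0901317 in W/W livers. It stood at 98.4, 139, 117 and 134 TPM with vehicle and 173, 155, 179.5 and 179 TPM with T0901317. The 4 agonist livers lay above the 4 vehicle livers and above every other liver of the study, and the change was 0.50 ± 0.12 (adjusted p = 0.00526), and 0.43 ± 0.10 after rescaling (adjusted p = 0.00406). In the mutants the agonist livers did not stand apart as deposited. W/F livers had 109.9, 106, 103 and 94.7 TPM with vehicle and 88.3, 89.1, 118 and 111 TPM with T0901317, and F/F livers had 81.2, 106, 99.2 and 94.7 TPM and 96.9, 98.9, 104 and 102 TPM. These pairs of groups overlapped as deposited but not after rescaling. Rescaled, W/F livers were at 78.9 to 87.9 TPM with vehicle and 96.6 to 140 TPM with T0901317. Rescaled F/F livers were at 57.1 to 71.8 TPM and 75.2 to 95.2 TPM. The change was -0.04 (0.56 after rescaling) in W/F and 0.08 (0.35 after rescaling) in F/F, not called as deposited and called as a rise after rescaling in both (adjusted p = 3.38e-05 and 0.0181). The W/F response differed from that of W/W by -0.53 ± 0.17 (adjusted p = 0.00825) as deposited and by 0.13 ± 0.14 (adjusted p = 0.496) after rescaling. For F/F the difference of responses was -0.41 ± 0.17 (adjusted p = 0.063) and -0.08 ± 0.14 (adjusted p = 0.75) after rescaling, and as deposited it was called without F/F vehicle replicate 1, W/W vehicle replicate 2 or W/W vehicle replicate 4 (adjusted p = 0.0338, 0.0386 and 0.0467).

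With T0901317, Mttp was lower in both mutants than in W/W under either scaling. The W/F difference was -0.76 ± 0.12 (adjusted p = 4.26e-05), and -0.75 ± 0.10 after rescaling (adjusted p = 3.82e-06). The F/F difference was -0.77 ± 0.12 (adjusted p = 3.26e-06), and -1.28 ± 0.10 after rescaling (adjusted p = 2.52e-11). All 8 mutant livers lay below the 4 W/W livers. On vehicle the F/F difference was -0.35 ± 0.12 (adjusted p = 0.00958), and -1.20 ± 0.10 after rescaling (adjusted p = 2.07e-11), and the W/F difference was -0.23 (-0.88 after rescaling), called after rescaling (adjusted p = 1.88e-08) and, as deposited, only without W/W vehicle replicate 1 (adjusted p = 0.022). On chow, Mttp was 116 to 135 TPM in W/W, 117 to 129.8 TPM in W/F and 75.4 to 128 TPM in F/F livers, where F/F replicate 1 was the highest and replicate 2 the lowest of the group. The chow differences were -0.03 (-0.06 after rescaling) for W/F and -0.26 (-0.64 after rescaling) for F/F, the latter called after rescaling (adjusted p = 1.54e-05) and, as deposited, only without F/F chow replicate 1 (adjusted p = 0.025). The diet changes were -0.08 (0.04 after rescaling) in W/W, -0.28 (-0.77 after rescaling) in W/F and -0.17 (-0.52 after rescaling) in F/F. That of W/F was called under both scalings, but as deposited its adjusted p was 0.0456 and it lay between 0.0612 and 0.118 when W/F chow replicate 2, 3 or 4 or W/F vehicle replicate 2, 3 or 4 was left out. That of F/F was called after rescaling (adjusted p = 0.000122) and, as deposited, only without F/F chow replicate 2 (adjusted p = 0.0077).

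Apoa1, the main HDL protein, moved in opposite directions with T0901317 in W/W and in the mutants. W/W livers had 15891, 15623, 14906 and 14593 TPM with vehicle and 11941, 10798, 9630.0 and 10626 TPM with T0901317. The groups did not overlap, and the change was -0.51 ± 0.11 (adjusted p = 0.00236), and -0.58 ± 0.15 after rescaling (adjusted p = 0.00789). W/F livers had 11536, 10613, 9709 and 10437 TPM with vehicle and 13976, 13387, 14429 and 16711 TPM with T0901317. Here all 4 agonist livers were the higher ones, and the change was 0.47 ± 0.11 (adjusted p = 0.000607), and 1.07 ± 0.15 after rescaling (adjusted p = 5.96e-07). F/F livers had 12592, 9679, 9463 and 10752 TPM and 13724, 14893, 14681 and 11934 TPM, which overlapped through vehicle replicate 1 and agonist replicate 4. The F/F change was 0.38 ± 0.11 (adjusted p = 0.0103), and 0.65 ± 0.15 after rescaling (adjusted p = 0.00252). The responses differed from that of W/W by 0.97 ± 0.16 (adjusted p = 7.67e-06) in W/F and 0.89 ± 0.16 (adjusted p = 0.000163) in F/F, and by 1.64 ± 0.21 (adjusted p = 2.85e-07) and 1.23 ± 0.21 (adjusted p = 0.000118) after rescaling.

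Between genotypes, Apoa1 was lower in both mutants on vehicle. The difference from W/W was -0.53 ± 0.11 (adjusted p = 0.000129), and -1.19 ± 0.15 after rescaling (adjusted p = 6.73e-08) for W/F. For F/F it was -0.53 ± 0.11 (adjusted p = 9.62e-05), and -1.39 ± 0.15 after rescaling (adjusted p = 2.06e-09). With T0901317 the W/F livers were higher by 0.44 ± 0.11 (adjusted p = 0.0088), and 0.45 ± 0.15 after rescaling (adjusted p = 0.0384), while the F/F difference was 0.36 ± 0.11 (adjusted p = 0.00656) as deposited and -0.16 ± 0.15 (adjusted p = 0.392) after rescaling. Chow livers ranged over 12741 to 16754 TPM in W/W, 9898 to 14645 TPM in W/F and 11119 to 12093 TPM in F/F. All F/F chow livers were below all W/W chow livers, with a difference of -0.27 ± 0.11 (adjusted p = 0.0516) that was called after rescaling, at -0.65 ± 0.15 (adjusted p = 0.00118), and as deposited without W/W chow replicate 3 (adjusted p = 0.0374). The W/F chow difference was -0.19 (-0.22 after rescaling), not called. Diet changes were 0.12 (0.25 after rescaling) in W/W, -0.22 (-0.72 after rescaling) in W/F and -0.14 (-0.49 after rescaling) in F/F, none called as deposited and those of W/F and F/F called as falls after rescaling (adjusted p = 0.000139 and 0.00734). Without W/F chow replicate 4 the W/F diet change was -0.32 (adjusted p = 0.0143).

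Apoa2, the other main HDL protein, was lower in the mutants on vehicle and rose there with T0901317. On vehicle it stood at 25285, 25153, 28708 and 22149 TPM in W/W, 9139, 10224, 8045 and 9488 TPM in W/F and 8902, 6816, 7469.9 and 8292 TPM in F/F livers. No mutant liver reached even the lowest W/W liver. The W/F difference was -1.46 ± 0.14 (adjusted p = 2.27e-10), and -2.12 ± 0.18 after rescaling (adjusted p = 5.49e-11). The F/F difference was -1.69 ± 0.14 (adjusted p = 3.98e-12), and -2.55 ± 0.18 after rescaling (adjusted p = 4.26e-13). With T0901317 the levels were 27071, 23912, 24639 and 25889 TPM in W/W, 29089, 18364, 22003 and 23503 TPM in W/F and 14065, 12968, 15718 and 11319 TPM in F/F livers. The W/F livers overlapped those of W/W, and the F/F livers stayed below both. The response was 1.32 ± 0.14 (adjusted p = 2.82e-09), and 1.92 ± 0.18 after rescaling (adjusted p = 7.05e-10) in W/F, 0.78 ± 0.14 (adjusted p = 0.000135), and 1.04 ± 0.18 after rescaling (adjusted p = 0.000125) in F/F, and 0.01 (-0.06 after rescaling) in W/W, not called. It differed from the W/W response by 1.31 ± 0.19 (adjusted p = 1.92e-06), and 1.98 ± 0.25 after rescaling (adjusted p = 3.22e-07) in W/F and by 0.77 ± 0.19 (adjusted p = 0.00403), and 1.11 ± 0.25 after rescaling (adjusted p = 0.00271) in F/F.

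On chow Apoa2 was 15774 to 23151 TPM in W/W, 13291 to 18979 TPM in W/F and 10576 to 12254 TPM in F/F livers, the F/F range lying below both others. The F/F chow difference was -0.77 ± 0.14 (adjusted p = 5.06e-05), and -1.15 ± 0.18 after rescaling (adjusted p = 1.14e-05), and that of W/F was -0.25 (-0.28 after rescaling), not called. Apoa2 fell with the MASH diet in both mutants. The change was -0.84 ± 0.14 (adjusted p = 4.58e-06), and -1.34 ± 0.18 after rescaling (adjusted p = 2.41e-07) in W/F. That of F/F was -0.55 ± 0.14 (adjusted p = 0.00118), and -0.90 ± 0.18 after rescaling (adjusted p = 0.000142), and in W/W 0.37 (0.50 after rescaling). The W/W change was not called, but it was without W/W chow replicate 1 (adjusted p = 0.0407). The diet responses differed from that of W/W by -1.21 ± 0.19 (adjusted p = 7.72e-06), and -1.83 ± 0.25 after rescaling (adjusted p = 1.29e-06) in W/F and -0.91 ± 0.19 (adjusted p = 0.000438), and -1.39 ± 0.25 after rescaling (adjusted p = 0.000143) in F/F. With T0901317, F/F livers were below W/W livers, at -0.92 ± 0.14 (adjusted p = 1.58e-06), and -1.44 ± 0.18 after rescaling (adjusted p = 1.25e-07), and the W/F difference was -0.14 (-0.13 after rescaling), not called.

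Apoa4, which encodes apoA-IV, had the widest range of the 10 genes. W/W livers had 133, 52.0, 81.9 and 95.0 TPM on chow. With vehicle on the MASH diet they had 258, 469, 483 and 215 TPM. With T0901317 they had 1446, 1923, 1059 and 1056 TPM. These 3 ranges did not overlap, and each step was a rise. The diet change in W/W was 1.95 ± 0.32 (adjusted p = 0.000129), and 2.08 ± 0.29 after rescaling (adjusted p = 1.88e-05). The agonist change was 1.98 ± 0.32 (adjusted p = 4.43e-05), and 1.92 ± 0.29 after rescaling (adjusted p = 2.62e-05). W/F livers had 42.9, 69.9, 67.3 and 55.2 TPM on chow, 501, 377, 439 and 463 TPM with vehicle and 224, 321, 192 and 208 TPM with T0901317. Here, as deposited, vehicle livers were the highest, and the ranges did not overlap. After rescaling, the vehicle livers (285 to 405 TPM) overlapped those with T0901317 (228 to 348 TPM). The W/F diet change was 2.92 ± 0.32 (adjusted p = 3.46e-09), and 2.42 ± 0.29 after rescaling (adjusted p = 3.91e-08). The W/F agonist change was -0.93 ± 0.32 (adjusted p = 0.0108) as deposited, and -0.33 ± 0.29 (adjusted p = 0.364), not called, after rescaling.

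For Apoa4, F/F livers had 398, 271, 863 and 725 TPM on chow, 667, 1006, 747 and 710.2 TPM with vehicle and 1279, 1373, 839.7 and 643 TPM with T0901317. These ranges overlapped one another, and F/F chow livers all lay above all W/W and W/F chow livers. The F/F chow difference from W/W was 2.56 ± 0.32 (adjusted p = 2.4e-07), and 2.18 ± 0.29 after rescaling (adjusted p = 1.27e-06), against -0.56 (-0.59 after rescaling) for W/F chow, not called. The F/F diet change was 0.60 ± 0.32 (adjusted p = 0.109), and 0.25 ± 0.29 after rescaling (adjusted p = 0.511), and as deposited it was called without F/F chow replicate 3, the highest of its group (adjusted p = 0.0281). The F/F agonist change was 0.35 ± 0.32 (adjusted p = 0.393), and 0.62 ± 0.29 after rescaling (adjusted p = 0.16). Both responses of F/F livers were smaller than those of W/W livers: the diet response differed by -1.35 ± 0.45 (adjusted p = 0.0148), and -1.83 ± 0.42 after rescaling (adjusted p = 0.0014), and the agonist response by -1.63 ± 0.45 (adjusted p = 0.00729), and -1.30 ± 0.42 after rescaling (adjusted p = 0.0289). The agonist response of W/F differed from that of W/W by -2.92 ± 0.45 (adjusted p = 3.14e-06), and -2.25 ± 0.42 after rescaling (adjusted p = 6.18e-05). The diet response of W/F differed by 0.96 ± 0.45 (adjusted p = 0.0689) as deposited, 0.34 ± 0.42 (adjusted p = 0.556) after rescaling, and without W/W chow replicate 2, W/W vehicle replicate 2 or W/W vehicle replicate 3 its adjusted p as deposited was 0.0253, 0.0402 or 0.0374.

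With T0901317, W/F livers were lower than W/W livers without overlap, at -2.51 ± 0.32 (adjusted p = 9.4e-07), and -2.50 ± 0.29 after rescaling (adjusted p = 2.63e-07). F/F livers with T0901317 differed from W/W by -0.43 ± 0.32 (adjusted p = 0.243) as deposited, not called, and by -0.95 ± 0.29 (adjusted p = 0.00864) after rescaling. On vehicle, F/F livers exceeded W/W livers by 1.20 ± 0.32 (adjusted p = 0.00105) as deposited and 0.35 ± 0.29 (adjusted p = 0.323), not called, after rescaling, and W/F differed by 0.40 (-0.26 after rescaling), not called. Replicate spread was larger for Apoa4 than for the other members: its median coefficient of variation within groups was 30.0%, against 6.60% to 18.6% for the other 9 genes.

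Apoa5, whose product promotes triglyceride hydrolysis, varied less. Its group means ran from 763 ± 80.4 TPM in W/W T0901317 to 1211 ± 263 TPM in F/F chow livers, and every group overlapped the next in order. The F/F chow livers had 980.2, 1567, 1244 and 1052 TPM, against 923, 648, 627 and 979.6 TPM in W/W chow livers. All F/F values were above all W/W values, though the highest W/W and the lowest F/F value were nearly equal. The difference was 0.61 ± 0.17 (adjusted p = 0.00392) as deposited and 0.23 ± 0.19 (adjusted p = 0.408), not called, after rescaling. The diet change was a fall in F/F, at -0.57 ± 0.17 (adjusted p = 0.0046), and -0.92 ± 0.19 after rescaling (adjusted p = 0.000249), and differed from that of W/W by -0.87 ± 0.24 (adjusted p = 0.00391), and -1.35 ± 0.28 after rescaling (adjusted p = 0.000476). In W/W and W/F it was 0.30 (0.43 after rescaling) and 0.32 (-0.18 after rescaling), not called, although that of W/F was 0.47 without W/F chow replicate 2 (adjusted p = 0.0197). No agonist change was called in any genotype, at -0.33 (-0.40 after rescaling), -0.23 (0.37 after rescaling) and 0.14 (0.41 after rescaling) in W/W, W/F and F/F. After rescaling the agonist responses of W/F and F/F exceeded that of W/W by 0.77 ± 0.28 (adjusted p = 0.0234) and 0.81 ± 0.28 (adjusted p = 0.0389), while as deposited they differed by 0.10 ± 0.24 (adjusted p = 0.74) and 0.48 ± 0.24 (adjusted p = 0.126). On vehicle the differences from W/W were -0.02 (-0.68 after rescaling) for W/F and -0.26 (-1.12 after rescaling) for F/F, called as lower after rescaling (adjusted p = 0.00389 and 1.09e-05). With T0901317 they were 0.08 (0.09 after rescaling) and 0.22 (-0.31 after rescaling), not called, and on chow that of W/F was -0.04 (-0.07 after rescaling), not called.

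Apoc1, which encodes apoC-I, was ordered by genotype on chow and with vehicle. On chow it stood at 6081, 4614, 5678 and 5709 TPM in W/W, 3302, 3736, 3800.1 and 2745 TPM in W/F and 1685, 1726, 1884 and 1768 TPM in F/F livers. The 3 genotypes did not overlap, with W/F between the others. The W/F chow difference was -0.70 ± 0.11 (adjusted p = 0.000447), and -0.74 ± 0.15 after rescaling (adjusted p = 0.00894). The F/F chow difference was -1.64 ± 0.11 (adjusted p = 6.39e-12), and -2.02 ± 0.15 after rescaling (adjusted p = 2.69e-11). On vehicle the levels were 7947, 7570.4, 7886 and 7754 TPM in W/W, 3778, 4558, 4003 and 3938 TPM in W/F and 1874, 1530.3, 1675 and 1911 TPM in F/F livers. The same order held without overlap, with differences from W/W of -0.94 ± 0.11 (adjusted p = 1.96e-08), and -1.60 ± 0.15 after rescaling (adjusted p = 3.18e-10) in W/F and -2.16 ± 0.11 (adjusted p = 6.43e-16), and -3.02 ± 0.15 after rescaling (adjusted p = 2.77e-16) in F/F. With T0901317 the levels were 7059.7, 6901, 7181 and 7760.4 TPM in W/W, 8686, 5718, 6451 and 6848 TPM in W/F and 4597, 3738, 4624 and 3863 TPM in F/F livers. The W/F livers now overlapped those of W/W, and the F/F livers stayed below both.

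T0901317 raised Apoc1 by 0.75 ± 0.11 (adjusted p = 1.09e-06), and 1.36 ± 0.15 after rescaling (adjusted p = 1.22e-08) in W/F and by 1.27 ± 0.11 (adjusted p = 1.72e-09), and 1.53 ± 0.15 after rescaling (adjusted p = 1.42e-08) in F/F livers, in each case with no overlap. In W/W livers the change was -0.11 (-0.18 after rescaling), not called. The responses differed from that of W/W by 0.86 ± 0.16 (adjusted p = 3.65e-05), and 1.53 ± 0.21 after rescaling (adjusted p = 9.52e-07) in W/F and 1.38 ± 0.16 (adjusted p = 3.62e-07), and 1.71 ± 0.21 after rescaling (adjusted p = 1.07e-06) in F/F. With T0901317 the F/F difference from W/W was -0.79 ± 0.11 (adjusted p = 7.7e-07), and -1.31 ± 0.15 after rescaling (adjusted p = 2.52e-08), and that of W/F was -0.08 (-0.07 after rescaling), not called. The MASH diet raised Apoc1 in W/W livers by 0.50 ± 0.11 (adjusted p = 0.00299), and 0.63 ± 0.15 after rescaling (adjusted p = 0.00429). In W/F livers the change was 0.27 ± 0.11 (adjusted p = 0.0391) as deposited but -0.23 ± 0.15 (adjusted p = 0.197) after rescaling. Leaving out W/F chow replicate 1 or 4 or W/F vehicle replicate 2 or 3 gave adjusted p values of 0.0731, 0.198, 0.133 and 0.0574 as deposited, and without W/F chow replicate 4 the change was 0.17. In F/F livers it was -0.02 ± 0.11 (adjusted p = 0.899), and -0.37 ± 0.15 (adjusted p = 0.0438) after rescaling. The F/F diet response was lower than that of W/W, at -0.52 ± 0.16 (adjusted p = 0.0085), and -1.0 ± 0.21 after rescaling (adjusted p = 0.000677), and the W/F diet response differed by -0.24 (-0.86 after rescaling), called after rescaling (adjusted p = 0.00147).

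Apoc3, a neighbour of Apoa1 that encodes apoC-III, was ordered by genotype with vehicle but, as deposited, overlapped between genotypes on chow. Chow livers had 1887 to 2443 TPM in W/W, 1478 to 2128 TPM in W/F and 1744 to 2140.2 TPM in F/F, and these ranges overlapped. After rescaling, all F/F chow livers (1524 to 1801 TPM) lay below all W/W chow livers (2189 to 2765 TPM). The chow differences were -0.23 (-0.26 after rescaling) for W/F and -0.15 (-0.53 after rescaling) for F/F, the latter called after rescaling (adjusted p = 0.00823). On vehicle the levels were 2761, 2508, 2569 and 2691 TPM in W/W, 1536, 1300.2, 1216 and 1516 TPM in W/F and 1095, 983, 982 and 896 TPM in F/F livers. The 3 genotypes were separate, W/W highest and F/F lowest. The difference from W/W was -0.92 ± 0.11 (adjusted p = 3.96e-08), and -1.58 ± 0.15 after rescaling (adjusted p = 6.18e-10) for W/F. For F/F it was -1.41 ± 0.11 (adjusted p = 3.8e-12), and -2.27 ± 0.15 after rescaling (adjusted p = 1.53e-13). With T0901317 the levels were 2255, 2086, 2127 and 1919 TPM in W/W, 2621, 1654, 1943 and 2059 TPM in W/F and 1749.8, 1580.2, 1647 and 1564 TPM in F/F livers. The W/W and W/F livers overlapped. The F/F livers lay below all W/W livers, at -0.36 ± 0.11 (adjusted p = 0.00801), and -0.88 ± 0.15 after rescaling (adjusted p = 2.12e-05), and the W/F difference was -0.04 (-0.03 after rescaling), not called.

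Apoc3 rose with T0901317 in W/F livers by 0.56 ± 0.11 (adjusted p = 9.74e-05), and 1.16 ± 0.15 after rescaling (adjusted p = 2.61e-07). The F/F rise was 0.73 ± 0.11 (adjusted p = 3.58e-05), and 0.99 ± 0.15 after rescaling (adjusted p = 3.05e-05). In W/W livers all 4 agonist values were below all 4 vehicle values, with a change of -0.33 ± 0.11 (adjusted p = 0.0628), and -0.40 ± 0.15 after rescaling (adjusted p = 0.0842), not called. The responses differed from that of W/W by 0.89 ± 0.16 (adjusted p = 3.39e-05), and 1.56 ± 0.22 after rescaling (adjusted p = 1.1e-06) in W/F and 1.06 ± 0.16 (adjusted p = 2.56e-05), and 1.39 ± 0.22 after rescaling (adjusted p = 3.7e-05) in F/F. The diet changes were 0.28 (0.41 after rescaling) in W/W, not called, -0.41 ± 0.11 (adjusted p = 0.00269), and -0.91 ± 0.15 after rescaling (adjusted p = 8.89e-06) in W/F, and -0.98 ± 0.11 (adjusted p = 3.35e-08), and -1.33 ± 0.15 after rescaling (adjusted p = 3.87e-08) in F/F. The W/F diet response was below that of W/W, at -0.69 ± 0.16 (adjusted p = 0.000714), and -1.32 ± 0.22 after rescaling (adjusted p = 1.45e-05). That of F/F was lower too, at -1.26 ± 0.16 (adjusted p = 1.03e-06), and -1.74 ± 0.22 after rescaling (adjusted p = 8.77e-07).

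Apoc2, whose product activates lipoprotein lipase, was listed at 8.12 to 22.9 TPM, which is 54 to 219 recovered reads per library. Given the overlap with Gm44805, which was listed at 8.94 to 20.4 TPM, these values may not be the level of Apoc2. Its only called change as deposited was the diet change in F/F livers, from 11.3, 8.12, 14.5 and 15.9 TPM to 21.0, 16.1, 22.9 and 15.8 TPM. The ranges overlapped at 15.9 and 15.8 TPM, and the change was 0.59 ± 0.20 (adjusted p = 0.0125) as deposited and 0.26 ± 0.18 (adjusted p = 0.252) after rescaling. Without F/F chow replicate 2 or F/F vehicle replicate 3 the adjusted p as deposited was 0.0854 or 0.0503. After rescaling, its only called difference was that of W/F against W/W on vehicle, at -0.56 ± 0.18 (adjusted p = 0.0116), where the deposited difference was 0.06 ± 0.20 (adjusted p = 0.806). No other value of Apoc2 was called under either scaling. Its T0901317 changes were 0.17 (0.10 after rescaling) in W/W, -0.37 (0.18 after rescaling) in W/F and -0.05 (0.20 after rescaling) in F/F, and its diet changes 0.14 (0.26 after rescaling) in W/W and 0.33 (-0.14 after rescaling) in W/F. Against W/W, W/F and F/F livers differed by -0.13 (-0.16 after rescaling) and -0.06 (-0.41 after rescaling) on chow and by -0.48 (-0.48 after rescaling) and 0.18 (-0.31 after rescaling) with T0901317, and F/F livers by 0.39 (-0.41 after rescaling) on vehicle. The W/F and F/F T0901317 responses differed from that of W/W by -0.54 (0.08 after rescaling) and -0.21 (0.10 after rescaling). Single omissions brought 3 other deposited results past the threshold. They were the W/F agonist change without W/F T0901317 replicate 4 (adjusted p = 0.0292), its difference from the W/W response without that library or W/W vehicle replicate 2 (adjusted p = 0.0385 and 0.0398), and the F/F difference from W/W on vehicle without F/F vehicle replicate 4 or W/W vehicle replicate 2 (adjusted p = 0.0497 and 0.0211).

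Apoe, the remnant ligand that macrophages also make, rose with the MASH diet in all 3 genotypes as deposited, and after rescaling in W/W alone. W/W livers had 20124, 16686, 17408 and 20757 TPM on chow and 29446, 30516, 32957 and 27424 TPM with vehicle. W/F livers had 15326, 16901, 17453 and 12848 TPM and 24234, 24819, 24515 and 23947 TPM, and F/F livers 14412, 11801, 14824 and 14908 TPM and 22963, 18089.8, 16889 and 19243 TPM. In each genotype all vehicle livers exceeded all chow livers. The W/W change was 0.69 ± 0.11 (adjusted p = 8.16e-05), and 0.81 ± 0.14 after rescaling (adjusted p = 0.000238). In W/F it was 0.65 ± 0.11 (adjusted p = 4.81e-06) as deposited and 0.15 ± 0.14 (adjusted p = 0.379), not called, after rescaling, and in F/F 0.46 ± 0.11 (adjusted p = 0.000529) and, not called after rescaling, 0.11 ± 0.14 (adjusted p = 0.541). On vehicle both mutants were below W/W. The W/F difference was -0.30 ± 0.11 (adjusted p = 0.014), and -0.96 ± 0.14 after rescaling (adjusted p = 1.15e-06), and as deposited its adjusted p was 0.0527 without W/W vehicle replicate 3. The F/F difference was -0.65 ± 0.11 (adjusted p = 2.76e-06), and -1.51 ± 0.14 after rescaling (adjusted p = 1.56e-10). On chow the F/F difference was -0.42 ± 0.11 (adjusted p = 0.00199), and -0.80 ± 0.14 after rescaling (adjusted p = 5.95e-05), and the W/F difference was -0.27 (-0.30 after rescaling), not called.

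With T0901317 Apoe stood at 27448, 27181, 23802 and 27917 TPM in W/W, 31034, 27161, 29693 and 30520.3 TPM in W/F and 25951, 25728, 27332 and 23909 TPM in F/F livers. All 3 groups overlapped. The mutants were above their vehicle livers without overlap, by 0.28 ± 0.11 (adjusted p = 0.0231), and 0.88 ± 0.14 after rescaling (adjusted p = 5.73e-06) in W/F and by 0.42 ± 0.11 (adjusted p = 0.00361), and 0.69 ± 0.14 after rescaling (adjusted p = 0.0009) in F/F. The W/F call as deposited had an adjusted p of 0.0631 without W/F T0901317 replicate 1 and 0.0511 without replicate 4. In W/W livers the change was -0.18 (-0.25 after rescaling), not called. The responses exceeded that of W/W by 0.46 ± 0.15 (adjusted p = 0.0107), and 1.13 ± 0.20 after rescaling (adjusted p = 3.66e-05) in W/F and 0.60 ± 0.15 (adjusted p = 0.00394), and 0.94 ± 0.20 after rescaling (adjusted p = 0.00135) in F/F. With T0901317 the difference from W/W was 0.16 (0.17 after rescaling) for W/F, not called, and -0.05 (-0.57 after rescaling) for F/F, called as lower after rescaling (adjusted p = 0.00139). Of the 10 macrophage markers, the MASH diet gave 8 higher and 1 lower (8 and 1 after rescaling) in W/F and 6 higher and 2 lower (6 and 2 after rescaling) in F/F, and T0901317 gave 2 higher and 7 lower (2 and 6 after rescaling) in W/F and 3 higher and 5 lower (3 and 1 after rescaling) in F/F. Of all genes, the diet gave 52.4% higher and 8.53% lower in W/F and 46.5% and 9.27% in F/F. T0901317 gave 6.59% and 59.3% in W/F and 3.95% and 31.2% in F/F. After rescaling these shares were 28% and 26.8%, 25.9% and 21.1%, 23.5% and 27.3%, and 8.28% and 8.12%, in the same order. The part of the macrophage markers in the Apoe level was not tested.

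The agonist comparison asked how T0901317 changed liver expression on the MASH diet in each genotype. In W/W livers the called genes were Apoa4 and Mttp as rises and Apoa1 as a fall. By count in W/W, 2 of the 10 genes were higher and 1 lower as deposited, and 2 and 1 after rescaling. Of all 16638 genes, 7.87% were higher and 2.91% lower as deposited, and 8.05% and 5.52% after rescaling. The median log2 change of the 10 genes was -0.06 against 0.06 for all genes, and -0.13 against 0.01 after rescaling. In W/F livers Apoa2, Apoc1, Apoc3, Apoa1 and Apoe rose under both scalings, and Apoa4 and Apob were called as falls as deposited only. In W/F, 5 of the 10 genes were higher and 2 lower as deposited, and 6 and 0 after rescaling. The same calls were made for 6.59% and 59.3% of all genes as deposited and for 23.5% and 27.3% after rescaling. Mttp was the sixth rescaled rise. The median was 0.12 against -0.49 for all genes, and 0.72 against -0.04 after rescaling. In F/F livers the same 5 genes, Apoc1, Apoa2, Apoc3, Apoe and Apoa1, rose under both scalings. In F/F, 5 of the 10 genes were higher and 0 lower as deposited, and 7 and 0 after rescaling. Over all genes the shares were 3.95% higher and 31.2% lower, and 8.28% and 8.12% after rescaling. Apob and Mttp were the further rises after rescaling. The median was 0.37 against -0.24 for all genes, and 0.63 against -0.02 after rescaling. Calls were lost with no filter on low genes or with only the libraries compared in the fit for Apoe in W/F (adjusted p = 0.212 and 0.0575), Apoe in F/F (0.0713 and 0.0796) and Apoa1 in F/F (0.0625 and 0.0852). The W/W fall of Apoc3 was gained with a filter of 5 TPM or with only the libraries compared (adjusted p = 0.0472 and 0.0324). These W/F and F/F comparisons share no library.

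The test of the difference itself asked whether the agonist response depended on genotype. For W/F against W/W, 5 of the 10 genes were higher and 3 lower as deposited, and 6 and 1 after rescaling. Among all genes tested, 5.27% were called higher and 53.2% lower as deposited, against 19.7% and 24.1% after rescaling. Apoa1, Apoa2, Apoc1, Apoc3 and Apoe were higher and Apoa4 lower under both scalings. Apob and Mttp were called as lower as deposited, where after rescaling their values were 0.23 and 0.13. The Apob call, at -0.44 ± 0.16 (adjusted p = 0.0192), had an adjusted p of 0.0592, 0.0545, 0.0633 or 0.0649 without W/F T0901317 replicate 1, W/F vehicle replicate 2, W/W T0901317 replicate 4 or W/W vehicle replicate 1. For F/F against W/W, 5 of the 10 genes were higher and 1 lower as deposited, and 6 and 1 after rescaling. Of all 16638 genes, 3.29% were higher and 27.2% lower as deposited, and 7.33% and 10.1% after rescaling. The same 5 genes were higher and Apoa4 lower, and Apoa5 was called as higher after rescaling in both mutants. The F/F difference of Apob was 0.11 (0.44 after rescaling), not called. With no filter the Apoe differences were not called in W/F or F/F (adjusted p = 0.159 and 0.084). With only the libraries compared, that of Apob in W/F was not called and that of Mttp in F/F was (adjusted p = 0.071 and 0.041). The W/F and F/F differences share the 8 W/W libraries.

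**Figure D2:**
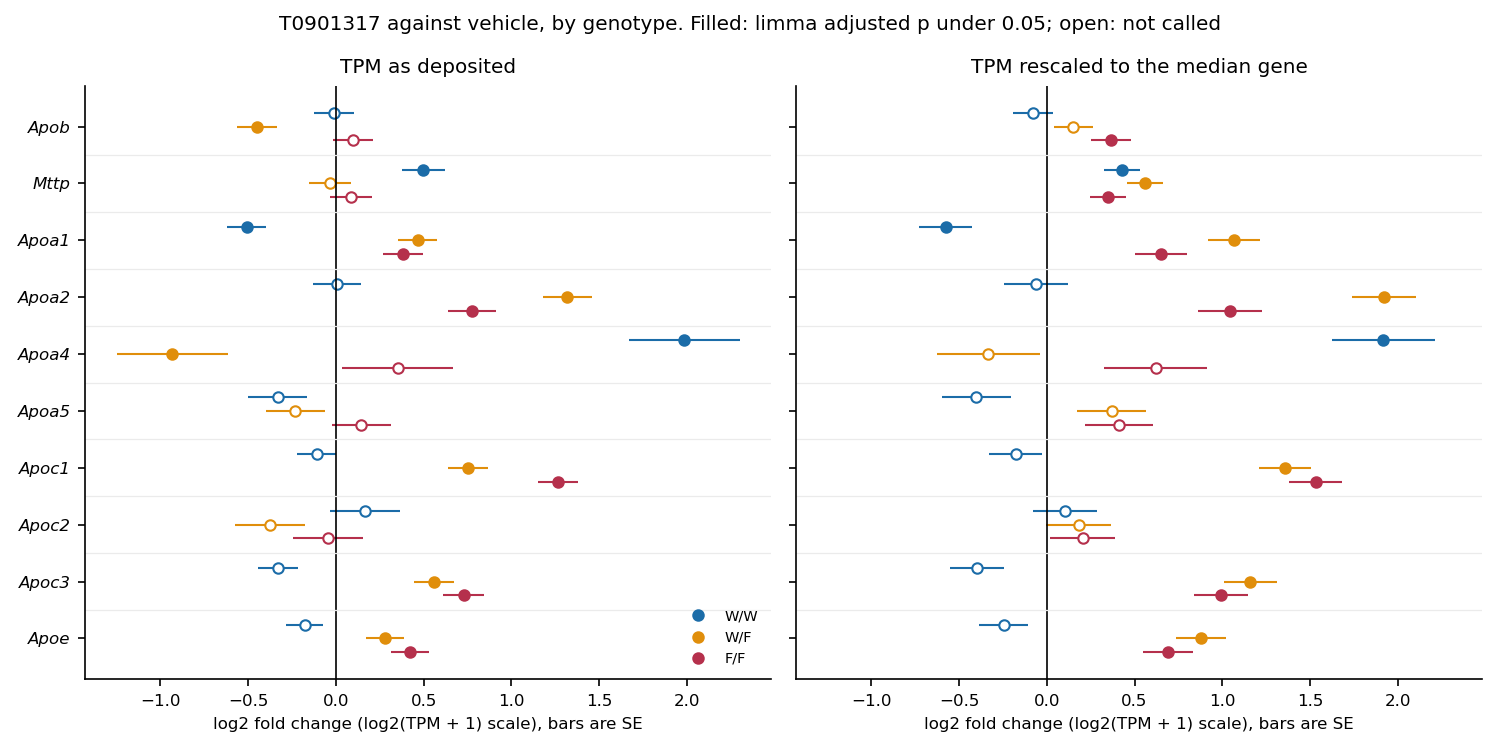
Log2 fold change of T0901317 against vehicle (horizontal axis, log2(TPM + 1) scale, bars are SE) for each gene in W/W, W/F and F/F livers, as deposited (left) and rescaled (right), 4 mice per group. Apoa4 was at 1.98 in W/W and -0.93 in W/F livers as deposited, while Apoc1 was at -0.11 in W/W, 0.75 in W/F and, highest, 1.27 in F/F livers.

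The diet comparison set MASH diet with vehicle against chow. In W/W livers Apoa4, Apoe and Apoc1 rose, and Apob was called as a fall as deposited only. Counted in W/W, 3 of the 10 genes were higher and 1 lower as deposited, and 3 and 0 after rescaling. The same calls were made for 2.59% and 10.3% of all genes as deposited and for 7% and 8.42% after rescaling. In W/F livers Apoa4 rose and Apoa2, Apoc3 and Mttp fell under both scalings. Apoc1 and Apoe were called as rises as deposited only, and Apoa1 and Apob as falls after rescaling only. Counted in W/F, 3 of the 10 genes were higher and 3 lower as deposited, and 1 and 5 after rescaling. Over all genes the shares were 52.4% higher and 8.53% lower, and 28% and 26.8% after rescaling. In F/F livers Apoa2, Apoa5, Apob and Apoc3 fell under both scalings, while Apoc2 and Apoe were called as rises as deposited only and Apoa1, Apoc1 and Mttp as falls after rescaling only. Counted in F/F, 2 of the 10 genes were higher and 4 lower as deposited, and 0 and 7 after rescaling. Among all genes tested, 46.5% were called higher and 9.27% lower as deposited, against 25.9% and 21.1% after rescaling. With only the libraries compared, the adjusted p in W/W was 0.0844 for Apob, 0.0649 for Apoc1 and 0.0743 for Apoe, and in W/F 0.0989 for Apoc1. With no filter it was 0.0503 for Apob in W/W, and in W/F 0.0925 for Apoc1 and 0.0762 for Mttp. The median log2 change of the 10 genes was 0.29, 0.03 and -0.16 in W/W, W/F and F/F as deposited, against -0.05, 0.39 and 0.32 for all genes.

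Tested as a difference of diet responses, no member was higher in a mutant under either scaling. For W/F against W/W, 0 of the 10 genes were higher and 2 lower as deposited, and 0 and 7 after rescaling. Of all 16638 genes, 49.5% were higher and 5.13% lower as deposited, and 21.1% and 18.9% after rescaling. Apoa2 and Apoc3 were lower under both, and Apoa1, Apob, Apoc1, Apoe and Mttp after rescaling only. Those 5 were -0.34 (-0.97 after rescaling) for Apoa1, 0.14 (-0.49 after rescaling) for Apob, -0.24 (-0.86 after rescaling) for Apoc1, -0.03 (-0.66 after rescaling) for Apoe and -0.19 (-0.82 after rescaling) for Mttp. Apoa5, at 0.02 (-0.61 after rescaling), and Apoc2, at 0.19 (-0.40 after rescaling), were not called. Without W/F chow replicate 4 or W/W chow replicate 1 the Apoa1 difference was also called as deposited, at -0.44 (adjusted p = 0.0152) and -0.43 (adjusted p = 0.0245). For F/F against W/W, 0 of the 10 genes were higher and 6 lower as deposited, and 0 and 9 after rescaling. The same calls were made for 41.5% and 4.54% of all genes as deposited and for 14.7% and 12.2% after rescaling. Apoa2, Apoa4, Apoa5, Apob, Apoc1 and Apoc3 were lower under both, and Apoa1, Apoe and Mttp after rescaling only, at -0.26 (-0.74 after rescaling), -0.22 (-0.70 after rescaling) and -0.09 (-0.56 after rescaling). Apoc2, at 0.45 (0.00 after rescaling), was not called. That of Apob, at -0.41 ± 0.16 (adjusted p = 0.0387), and -0.88 ± 0.16 after rescaling (adjusted p = 0.000114), lost its deposited call without any 1 of 11 of the 16 libraries compared. These were F/F chow replicates 1 and 2, F/F vehicle replicates 1, 3 and 4, W/W chow replicates 1, 3 and 4 and W/W vehicle replicates 2, 3 and 4, with adjusted p from 0.0504 to 0.0967, and with no filter it was 0.0676. The W/F and F/F differences share the 8 W/W libraries, and the chow and vehicle libraries of a genotype enter both its diet change and this difference.

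The genotype comparison asked how the mutation changed expression within each treatment. On chow, Apoc1 was the only called member in W/F livers. On chow in W/F, 0 of the 10 genes were higher and 1 lower as deposited, and 0 and 1 after rescaling. Over all genes the shares were 0.198% higher and 0.288% lower, and 0.192% and 0.409% after rescaling. In F/F chow livers Apoa4 was higher, and Apoc1, Apoa2 and Apoe were lower under both scalings, with Apoa5 and Apob called as higher as deposited only and Apoa1, Apoc3 and Mttp as lower after rescaling only. On chow in F/F, 3 of the 10 genes were higher and 3 lower as deposited, and 1 and 6 after rescaling. Among all genes tested, 43% were called higher and 3.65% lower as deposited, against 16.1% and 13.8% after rescaling. With only the libraries compared, the adjusted p was 0.397 for Apoc1 in W/F and 0.0942 for Apoe in F/F, the latter 0.0642 with no filter. Apoa1 in F/F was called with a filter of 5 TPM (adjusted p = 0.04). The median difference of the 10 genes in F/F was -0.21 against 0.29 for all genes, and -0.59 against 0.00 after rescaling.

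On vehicle, Apoc1, Apoa2, Apoc3, Apoa1 and Apoe were lower in both mutants under both scalings. On vehicle in W/F, 1 of the 10 genes was higher and 5 lower as deposited, and 0 and 9 after rescaling. Of all 16638 genes, 61.6% were higher and 6.83% lower as deposited, and 27.8% and 25.3% after rescaling. The one higher call was Apob, which was called as lower after rescaling. On vehicle in F/F, 1 of the 10 genes was higher and 6 lower as deposited, and 0 and 8 after rescaling. The same calls were made for 69.3% and 7.13% of all genes as deposited and for 31.3% and 27.7% after rescaling. Mttp was lower under both scalings there, and the one higher call, Apoa4, was not called after rescaling. The W/F calls were lost for Apob with only the libraries compared (adjusted p = 0.0505) and for Apoe with no filter (adjusted p = 0.165). The median difference was -0.26 against 0.52 for all genes, and -0.92 against 0.02 after rescaling for W/F. For F/F it was -0.44 against 0.70 for all genes, and -1.29 against 0.04 after rescaling. Calls among the 8 hepatocyte markers were 2 higher and 4 lower (1 and 6 after rescaling) in W/F and 2 higher and 6 lower (1 and 6 after rescaling) in F/F livers. Their part in the results for the 10 genes was not tested.

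With T0901317, Apoa4 and Mttp were lower and Apoa1 higher in W/F than in W/W livers under both scalings. With T0901317 in W/F, 1 of the 10 genes was higher and 2 lower as deposited, and 1 and 2 after rescaling. Over all genes the shares were 3.65% higher and 6.23% lower, and 5.1% and 8.38% after rescaling. F/F livers had lower Apoa2, Apoc1, Mttp and Apoc3 under both scalings, Apoa1 was called as higher as deposited only and Apoa4, Apob and Apoe as lower after rescaling only. With T0901317 in F/F, 1 of the 10 genes was higher and 4 lower as deposited, and 0 and 7 after rescaling. Among all genes tested, 56.3% were called higher and 6.96% lower as deposited, against 24.4% and 22.4% after rescaling. The higher call of Apoa1 was lost in W/F with no filter or only the libraries compared (adjusted p = 0.0848 and 0.0907), and in F/F with no filter (adjusted p = 0.0523). The median difference was -0.09 against 0.00 for all genes, and -0.08 against 0.01 after rescaling for W/F. For F/F it was -0.20 against 0.43 for all genes, and -0.72 against 0.04 after rescaling. All W/F and F/F comparisons within a treatment share the 4 W/W libraries. Of the 14 counts of 0 among these comparisons of the 10 genes, limma's unadjusted p was under 0.05 for 1 gene each in the W/F difference of diet responses as deposited (Apoa4, higher) and the rescaled W/W diet change (Apob, lower), and for none in the rest.

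**Figure D3:**
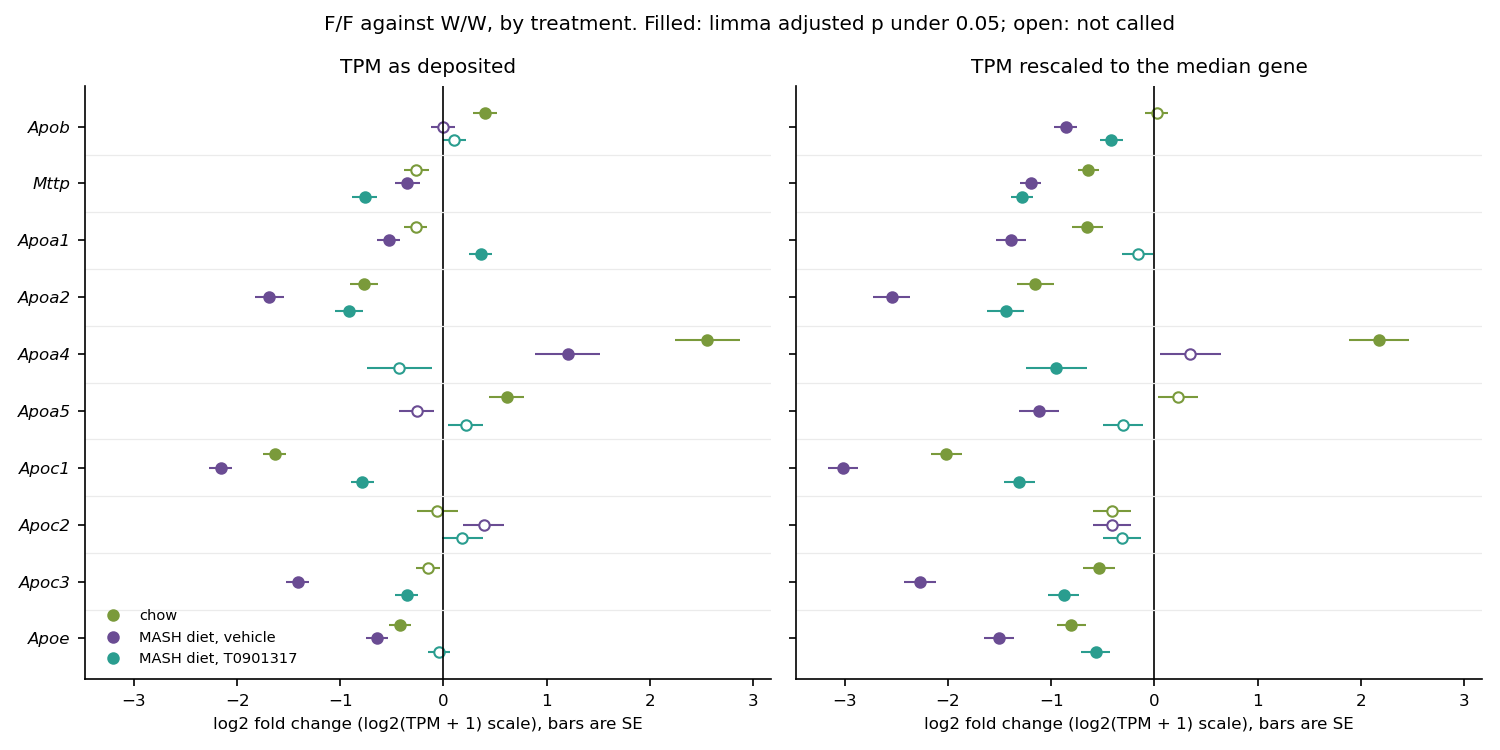
Log2 difference of F/F from W/W (horizontal axis, log2(TPM + 1) scale, bars are SE) for each gene on chow, with vehicle and with T0901317 (both on the MASH diet), as deposited (left) and rescaled (right), 4 mice per group. Apoc1 was at -1.64, -2.16 and -0.79, and Apoa4 at 2.56, 1.20 and -0.43, in that order as deposited.

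Ratios between 2 genes of a library do not depend on its scaling. Of 6 ratios compared over 12 pairs of groups with two-sided exact permutation tests, 38 of the 72 comparisons reached 0.0286, the smallest p that 4 against 4 mice allow. After adjustment over the 72 that value was 0.0541, so none passed the threshold of 0.05. The ratio of Apoa4 to Apoa1, which lie in 1 cluster, was 0.00381 to 0.00795 in W/W chow, 0.0147 to 0.0324 in W/W vehicle and 0.0994 to 0.178 in W/W T0901317 livers. In W/F livers it was 0.00324 to 0.00568, 0.0356 to 0.0452 and 0.0125 to 0.0240 in that order. The agonist livers lay above the vehicle livers in W/W and below them in W/F, with mean log2 differences of 2.5 and -1.4 (exact permutation p = 0.0286 each). In F/F livers it was 0.0239 to 0.0715, 0.0530 to 0.104 and 0.0539 to 0.0932, and the agonist difference was -0.03 (exact permutation p = 0.943).

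The ratio of Apoc1 to Apoe, neighbours on chromosome 7, was ordered by genotype. On chow it was 0.295 ± 0.0243 for W/W, 0.217 ± 0.00318 for W/F and 0.127 ± 0.0135 for F/F livers, without overlap. On vehicle it was 0.260 ± 0.0199, 0.167 ± 0.0118 and 0.0912 ± 0.00938, again without overlap. With T0901317 it was 0.273 ± 0.0221, 0.233 ± 0.0318 and 0.163 ± 0.0136, and W/F overlapped W/W. In the mutants the ratio was lower, with F/F minus W/W log2 differences of -1.22 on chow and -1.51 on vehicle (exact permutation p = 0.0286 each). The ratio of Apoc3 to Apoa1 on vehicle was 0.173 ± 0.00977 for W/W, 0.132 ± 0.0102 for W/F and 0.0939 ± 0.0103 for F/F livers. On chow it was 0.156 ± 0.0217, 0.151 ± 0.0203 and 0.167 ± 0.00976, with overlap.

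The ratio of Mttp to Apob, the pair needed to form VLDL, was 0.182 ± 0.0171 in W/W chow, 0.222 ± 0.0165 in W/W vehicle and 0.317 ± 0.0361 in W/W T0901317 livers. With T0901317 it was 0.199 ± 0.0215 in W/F and 0.172 ± 0.00644 in F/F livers, below all W/W livers with T0901317. On vehicle it was 0.150 ± 0.0249 in W/F and 0.174 ± 0.00573 in F/F livers. Between agonist and vehicle it differed on the log2 scale by 0.51 in W/W (exact permutation p = 0.0286). In W/F the difference was 0.42, with overlap (exact permutation p = 0.0571), and in F/F -0.01 (exact permutation p = 0.686). The ratio of Apoa5 to Apoa1 was 0.0901 ± 0.0136 in W/F vehicle and 0.0554 ± 0.00765 in W/F T0901317 livers, without overlap, and 0.104 ± 0.0245 in F/F against 0.0565 ± 0.0122 in W/W chow livers. That of Apoc2 to Apoe was at most 0.00135 in any library.

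**Figure D4:**
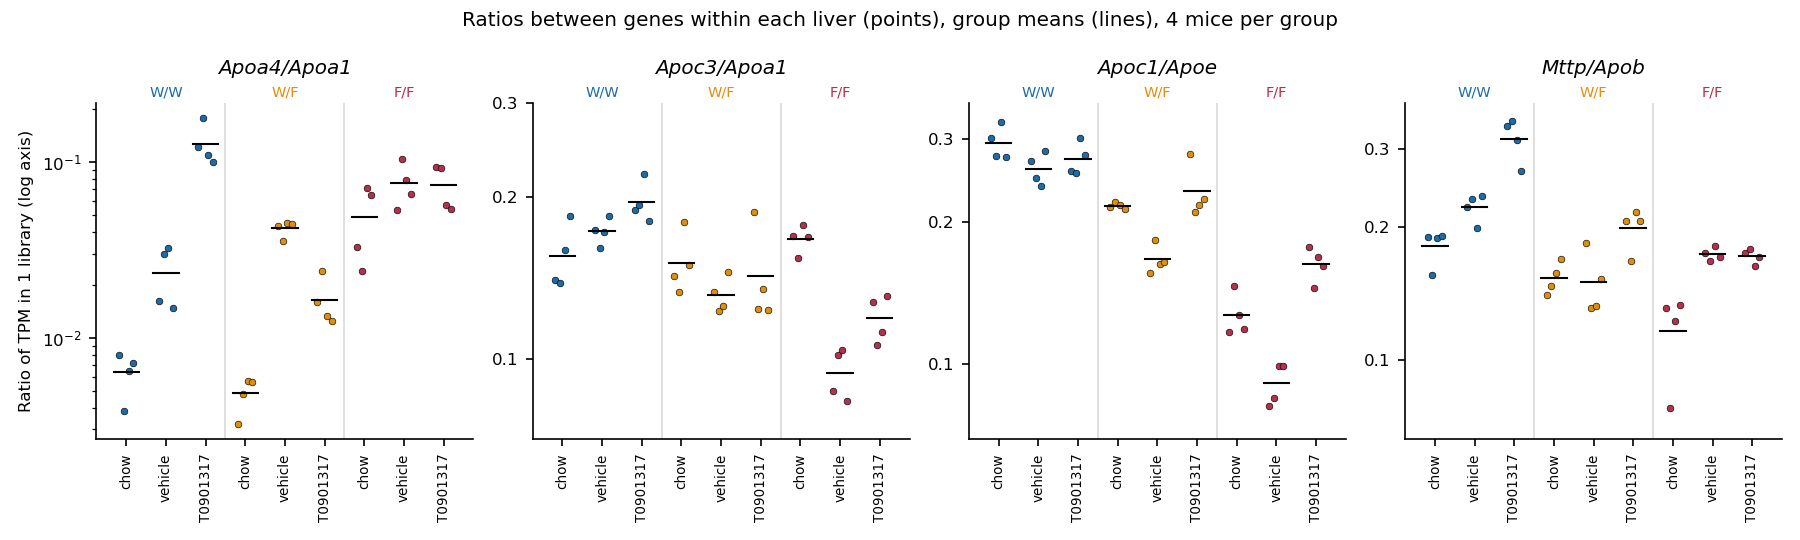
Ratio of TPM between 2 genes within each liver (log vertical axis), by genotype and treatment. Points are mice and lines are group means. The ratio of Apoa4 to Apoa1 ran from 0.00324 to 0.178, and that of Apoc1 to Apoe was 0.0816 to 0.0993 in F/F vehicle livers against 0.239 to 0.283 in W/W vehicle livers.

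Across the 36 libraries, which share groups and so are not independent, Pearson's r of log2 levels as a description was highest for Apoa2 with Apoc3, at 0.86, Apoa2 with Apoc1, at 0.85, and Apoc1 with Apoe, at 0.76. After rescaling these were 0.95, 0.92 and 0.93. Apob with Apoe was at -0.75, and at 0.08 after rescaling. Over the 9 group means, the 3 genes most like each of the 4 widest-ranging members were sought among 6689 other genes with a mean of at least 10 TPM. For Apoa2 they were Ephx2, Sod1 and Mdh1 (r from 0.98 to 0.99), and for Apoc3 Cyp2d40, Gchfr and Aldh7a1 (r from 0.96 to 0.97). For Apoa4 they were Rab1b, 2010003K11Rik and Dusp23, at 0.96, 0.94 and 0.94. After rescaling the r with Apoa4 was 0.46, 0.91 and 0.52 in the same order.

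Among 16 other apolipoproteins and HDL proteins, 14 passed the filter. Their calls on vehicle were 4 higher and 4 lower (1 and 11 after rescaling) in W/F and 3 higher and 7 lower (1 and 11 after rescaling) in F/F livers against W/W. The median log2 difference of the list was -0.19 in W/F and -0.37 in F/F, against 0.52 and 0.70 for all genes. In these comparisons 61.6% and 69.3% of all genes were higher and 6.83% and 7.13% lower, and after rescaling 27.8% and 31.3% higher and 25.3% and 27.7% lower. Clu, which encodes clusterin (apoJ), was at 1041 ± 87.7 TPM for W/W, 3165 ± 236 TPM for W/F and 3967 ± 239.9 TPM for F/F vehicle livers. It was higher by 1.60 ± 0.14 (adjusted p = 2.45e-11), and 0.95 ± 0.13 after rescaling (adjusted p = 4.36e-07) in W/F and 1.93 ± 0.14 (adjusted p = 1.82e-13), and 1.07 ± 0.13 after rescaling (adjusted p = 2.8e-08) in F/F. Pon1, the paraoxonase carried on HDL, was at 470.3 ± 38.5 TPM, 217 ± 41.0 TPM and 129 ± 11.3 TPM in the same groups. It was lower, at -1.13 ± 0.13 (adjusted p = 1.98e-08), and -1.78 ± 0.15 after rescaling (adjusted p = 3.09e-11) in W/F and -1.86 ± 0.13 (adjusted p = 3.65e-13), and -2.71 ± 0.15 after rescaling (adjusted p = 2.15e-15) in F/F, and rose with T0901317 by 1.15 (1.75 after rescaling) and 0.95 (1.22 after rescaling), called under both scalings. With T0901317 the list counted 1 higher and 5 lower (0 and 5 after rescaling) in W/W, 6 higher and 1 lower (13 and 1 after rescaling) in W/F and 5 higher and 1 lower (8 and 0 after rescaling) in F/F. The shares of all genes were 7.87%, 6.59% and 3.95% higher and 2.91%, 59.3% and 31.2% lower in the same order, and after rescaling 8.05%, 23.5% and 8.28% higher and 5.52%, 27.3% and 8.12% lower. In W/W, Lcat, the enzyme that esterifies HDL cholesterol, had the largest fall, from 559 ± 60.0 TPM to 366 ± 18.3 TPM, at -0.60 ± 0.08 (adjusted p = 5.24e-06), and -0.67 ± 0.11 after rescaling (adjusted p = 0.000102).

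Apom, an HDL protein, fell with the diet in W/W livers, from 355 ± 37.6 TPM to 207 ± 25.8 TPM, at -0.78 ± 0.13 (adjusted p = 0.000183), and -0.65 ± 0.11 after rescaling (adjusted p = 0.000144). With T0901317 it was at 388 ± 36.6 TPM in F/F and 279 ± 66.9 TPM in W/F against 175 ± 24.7 TPM in W/W livers, higher by 1.15 ± 0.13 (adjusted p = 1.82e-08), and 0.63 ± 0.11 after rescaling (adjusted p = 1.83e-05) in F/F and 0.64 ± 0.13 (adjusted p = 0.00107), and 0.65 ± 0.11 after rescaling (adjusted p = 7.61e-05) in W/F. Apoc4 lies between Apoc1 and Apoc2 in the cluster, and 7.27% of its 50-base sequences occur in other genes, Gm44805 among them. It differed from W/W on vehicle by -0.40 (-1.05 after rescaling) in W/F and -0.62 (-1.47 after rescaling) in F/F, called as lower under both scalings, and rose with T0901317 in W/F and F/F by 0.34 (0.94 after rescaling) and 0.30 (0.57 after rescaling). Its neighbours Apoc1 and Apoe had the same called directions in these 4 comparisons. With the diet the list counted 0 higher and 1 lower (0 and 1 after rescaling) in W/W, 2 higher and 5 lower (1 and 11 after rescaling) in W/F and 1 higher and 11 lower (1 and 11 after rescaling) in F/F. For all genes the diet shares were 2.59%, 52.4% and 46.5% higher and 10.3%, 8.53% and 9.27% lower, and after rescaling 7%, 28% and 25.9% higher and 8.42%, 26.8% and 21.1% lower. On chow it counted 0 higher and 0 lower (0 and 0 after rescaling) in W/F and 3 higher and 0 lower (1 and 5 after rescaling) in F/F, where 0.198% and 43% of all genes were higher and 0.288% and 3.65% lower (after rescaling 0.192% and 16.1%, and 0.409% and 13.8%). With T0901317 against W/W it counted 7 higher and 0 lower (7 and 0 after rescaling) in W/F, where Apol9b, 52.3% of whose 50-base sequences also occur in Apol9a, had the largest rise, and 7 higher and 2 lower (2 and 7 after rescaling) in F/F. There 3.65% and 56.3% of all genes were higher and 6.23% and 6.96% lower, and after rescaling 5.1% and 24.4% higher and 8.38% and 22.4% lower.

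Of 30 genes of lipoprotein assembly and secretion, 29 passed the filter. Apobec1, the deaminase that edits Apob mRNA to the short form, was at 15.7 ± 2.72 TPM for W/W, 101 ± 18.8 TPM for W/F and 99.6 ± 13.4 TPM for F/F vehicle livers. It was higher by 2.60 ± 0.21 (adjusted p = 1.08e-11), and 1.96 ± 0.18 after rescaling (adjusted p = 2.3e-10) in W/F and 2.59 ± 0.21 (adjusted p = 3.06e-12), and 1.76 ± 0.18 after rescaling (adjusted p = 8.56e-10) in F/F. It fell with T0901317 in W/F to 19.4 ± 7.40 TPM, at -2.36 ± 0.21 (adjusted p = 1.71e-10), and -1.78 ± 0.18 after rescaling (adjusted p = 2.86e-09). On chow it was at 42.7 ± 3.05 TPM in F/F against 17.2 ± 1.78 TPM in W/W livers, higher by 1.27 ± 0.21 (adjusted p = 1.88e-05), and 0.90 ± 0.18 after rescaling (adjusted p = 0.000284). A1cf, a cofactor of this editing, fell with the diet, at -1.37 (-1.25 after rescaling) in W/W, -1.70 (-2.18 after rescaling) in W/F and -1.85 (-2.16 after rescaling) in F/F, called under both scalings in each. Macrophages also express Apobec1, and the macrophage marker sums given above were higher in the mutants with vehicle. Their part was not tested, and editing itself was not measured.

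Sar1b, the small GTPase of the vesicles that carry large lipoproteins out of the endoplasmic reticulum, was at 486 ± 21.4 TPM for W/W, 304 ± 45.7 TPM for W/F and 303 ± 21.3 TPM for F/F vehicle livers. It was lower, at -0.68 ± 0.13 (adjusted p = 4.92e-05), and -1.34 ± 0.15 after rescaling (adjusted p = 1.11e-08) in W/F and -0.68 ± 0.13 (adjusted p = 3.56e-05), and -1.54 ± 0.15 after rescaling (adjusted p = 3.87e-10) in F/F, and in W/F its rise with T0901317 was 0.75 ± 0.13 (adjusted p = 1.75e-05), and 1.35 ± 0.15 after rescaling (adjusted p = 1.71e-08). Tm6sf2, which acts in VLDL lipidation, was not called for T0901317 as deposited in any genotype, at 0.04 (-0.03 after rescaling), -0.15 (0.44 after rescaling) and 0.17 (0.43 after rescaling), and after rescaling was called in W/F. Cidec, a lipid droplet protein, had the largest rise of the list with T0901317 in W/W, from 26.8 ± 10.3 TPM to 118 ± 36 TPM, at 2.15 ± 0.30 (adjusted p = 5.17e-06), and 2.09 ± 0.31 after rescaling (adjusted p = 1.57e-05). The list counted 6 higher and 0 lower (5 and 1 after rescaling) with T0901317 in W/W, 3 higher and 18 lower (12 and 3 after rescaling) in W/F and 2 higher and 11 lower (5 and 0 after rescaling) in F/F, where 7.87%, 6.59% and 3.95% of all genes were higher and 2.91%, 59.3% and 31.2% lower. With the diet it counted 1 higher and 5 lower (5 and 4 after rescaling), 13 higher and 4 lower (3 and 14 after rescaling) and 9 higher and 5 lower (2 and 11 after rescaling) in the same order, where 2.59%, 52.4% and 46.5% of all genes were higher and 10.3%, 8.53% and 9.27% lower. Against W/W it counted 18 higher and 3 lower (3 and 15 after rescaling) in W/F and 19 higher and 5 lower (2 and 16 after rescaling) in F/F on vehicle, 0 higher and 0 lower (0 and 0 after rescaling) and 10 higher and 2 lower (1 and 7 after rescaling) on chow, and 1 higher and 7 lower (1 and 7 after rescaling) and 13 higher and 7 lower (2 and 15 after rescaling) with T0901317. All genes counted 61.6% and 69.3% higher and 6.83% and 7.13% lower on vehicle, 0.198% and 43% higher and 0.288% and 3.65% lower on chow, and 3.65% and 56.3% higher and 6.23% and 6.96% lower with T0901317. After rescaling, all genes counted 8.05%, 23.5% and 8.28% higher and 5.52%, 27.3% and 8.12% lower for T0901317 against vehicle. The rescaled diet shares were 7%, 28% and 25.9% higher and 8.42%, 26.8% and 21.1% lower. Against W/W the rescaled shares were 0.192% and 16.1% higher and 0.409% and 13.8% lower on chow. With T0901317 they were 5.1% and 24.4% higher and 8.38% and 22.4% lower. In both mutants the balance of higher and lower calls of the list on vehicle turned with the scaling, where all genes had 27.8% and 31.3% higher and 25.3% and 27.7% lower after it. The median on vehicle was 0.35 in W/F and 0.57 in F/F against 0.52 and 0.70 for all genes, and -0.28 and -0.26 against 0.02 and 0.04 after rescaling.

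All 29 transcription factors listed as acting on apolipoprotein genes passed the filter. Srebf1, the regulator of fatty acid synthesis and a known LXR target, had the largest difference of the list on vehicle, where it was at 398 ± 171 TPM for W/W, 61.8 ± 13.2 TPM for W/F and 23.8 ± 1.93 TPM for F/F livers. It was lower, at -2.57 ± 0.22 (adjusted p = 2.37e-11), and -3.22 ± 0.22 after rescaling (adjusted p = 1.12e-12) in W/F and -3.89 ± 0.22 (adjusted p = 1.78e-15), and -4.73 ± 0.22 after rescaling (adjusted p = 1e-16) in F/F, and rose with T0901317 by 0.88 (0.81 after rescaling), 2.67 (3.27 after rescaling) and 2.43 (2.67 after rescaling) in W/W, W/F and F/F, called under both scalings. Hnf4a, which drives many apolipoprotein genes, was not called as deposited in any of the 12 comparisons of 2 groups. On vehicle it differed from W/W by 0.13 (-0.53 after rescaling) in W/F and -0.06 (-0.91 after rescaling) in F/F, called as lower after rescaling. Creb3l3, a factor of Apoa4 and other lipid genes, was at 240.0 ± 30.9 TPM with vehicle and 289 ± 19.3 TPM with T0901317 in W/W livers, a change of 0.27 ± 0.09 (adjusted p = 0.0607), and 0.21 ± 0.10 after rescaling (adjusted p = 0.171), not called. In W/F it rose with T0901317 by 0.30 ± 0.09 (adjusted p = 0.00631), and 0.90 ± 0.10 after rescaling (adjusted p = 7.76e-09). The list counted 3 higher and 1 lower (2 and 4 after rescaling) with T0901317 in W/W, 3 higher and 8 lower (16 and 2 after rescaling) in W/F and 2 higher and 7 lower (5 and 1 after rescaling) in F/F, beside 7.87%, 6.59% and 3.95% higher and 2.91%, 59.3% and 31.2% lower of all genes. Against W/W on vehicle it counted 9 higher and 3 lower (0 and 17 after rescaling) in W/F and 15 higher and 6 lower (3 and 16 after rescaling) in F/F, on chow 1 higher and 1 lower (1 and 1 after rescaling) and 4 higher and 3 lower (1 and 9 after rescaling), and with T0901317 2 higher and 3 lower (2 and 3 after rescaling) and 9 higher and 3 lower (3 and 10 after rescaling). With the diet it counted 1 higher and 5 lower (4 and 4 after rescaling), 6 higher and 4 lower (1 and 19 after rescaling) and 8 higher and 4 lower (3 and 10 after rescaling) in W/W, W/F and F/F. Of all genes, 61.6% and 69.3% were higher and 6.83% and 7.13% lower on vehicle (27.8% and 31.3%, and 25.3% and 27.7% after rescaling), 0.198% and 43% higher and 0.288% and 3.65% lower on chow, and 3.65% and 56.3% higher and 6.23% and 6.96% lower with T0901317. With the diet, 2.59%, 52.4% and 46.5% were higher and 10.3%, 8.53% and 9.27% lower. After rescaling the diet shares were 7%, 28% and 25.9% higher and 8.42%, 26.8% and 21.1% lower. The rescaled shares for T0901317 against vehicle were 8.05%, 23.5% and 8.28% higher and 5.52%, 27.3% and 8.12% lower. Against W/W the rescaled shares were 0.192% and 16.1% higher and 0.409% and 13.8% lower on chow. With T0901317 they were 5.1% and 24.4% higher and 8.38% and 22.4% lower. The median of the list on vehicle was 0.13 in W/F and 0.25 in F/F against 0.52 and 0.70 for all genes, and -0.53 and -0.58 against 0.02 and 0.04 after rescaling. Where limma called 0 genes of a list in a direction, at most 3 had an unadjusted p under 0.05.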

How the data were processed

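PolyA RNA of 36 mouse livers was sequenced, and groups were taken from the sample labels. The authors deposited one table of transcripts per 1000000 (TPM), in which each column sums to 1000000. The submitters' processing notes name Trimmomatic 0.36, STAR 2.5.2b, featureCounts, Subread 1.5.2 and the builds GRCm38 and mm10, with no role or order; the annotation, the strand setting and the formula for TPM are not given in the sources used here. TPM keep no counts, so no count test was run. Library depth was estimated from the spacing of low TPM values with GENCODE M21 exon lengths, where 93.7% to 95.6% of the low values were within 0.1 of a whole read (20% would be by chance). The lowest library value was 54 recovered reads for Apoc2 and 648 or more for each of the other 9 genes, so counting error bears mostly on Apoc2.

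The test took the 16638 of 49315 genes that reached 1 TPM in 4 or more samples. log2(TPM + 1) was fitted with limma (3.58.1, R 4.3.3, with trend) on 9 group means with 27 residual degrees of freedom. In each of 16 contrasts the two-sided p-values of all genes were adjusted together (Benjamini-Hochberg). Each sets a difference of group means against the spread between mice, pooled over the 9 groups and moderated across genes. A log2(TPM + 1) difference understates the change of low genes. Rescaled TPM were divided by median-of-ratios factors over 13950 genes. In data simulated for T0901317 against vehicle in W/W, with 200 of 16638 genes changed by 1 on the log2 scale, the fit called 189 of the 200 in the right direction and 10 of the others. The simulated noise was independent between genes, and no other gene and no library scale differed between groups. The simulation therefore says nothing on calls where many genes or the median gene moved. Within-library ratios were compared by two-sided exact permutation tests in Python 3.11.15, and figures were drawn with matplotlib 3.10.9. RefSeq promoters were matched by symbol.

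The 10 genes, the lists and the alternatives (pseudocount, filter, rescaling, replicate block, only the libraries compared, each library left out) were chosen with earlier results of these data known. All 10 genes are named in every contrast. Of the lists, the called gene with the largest rise and fall in each contrast, and Tm6sf2, Sar1b, Apobec1, Apom, Apoc4, Hnf4a and Creb3l3, could be named. For likeness, the 3 genes of highest Pearson r were named for the 4 members with the widest range, and the result for Apoc1 is not reported here. Marker lists for hepatocytes, macrophages and Kupffer cells, stellate cells and fibroblasts, cholangiocytes, enterocytes, endothelial cells, lymphocytes, neutrophils, pancreatic acinar cells, adipocytes and erythroid cells were also summed.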

Additional observations from a re-analysis of the deposited data

Results flagged for a closer look

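Each of the 10 genes was examined in each of the 9 groups of 4 mice for a liver that stood further from the others than Dixon's critical value allows. This held in 2 of 90 cases, and chance gives about 1 in 20. Apob was at 428 TPM in W/F T0901317 replicate 1, a gap of 0.889 of the group's range. Apoe was at 11801 TPM in F/F chow replicate 2, a gap of 0.840 of the range.

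Of 40 differences of responses between genotypes, 22 were called by limma as deposited. Of all genes, 5.27% were higher and 53.2% lower in the T0901317 response of W/F minus W/W, 3.29% and 27.2% in that of F/F, 49.5% and 5.13% in the diet response of W/F and 41.5% and 4.54% in that of F/F, so a large share of genes was called in each. For the T0901317 response of W/F minus that of W/W, the log2 differences were 0.97 for Apoa1, 1.31 for Apoa2, -2.92 for Apoa4, -0.44 for Apob, 0.86 for Apoc1, 0.89 for Apoc3, 0.46 for Apoe and -0.53 for Mttp. For F/F minus W/W they were 0.89 for Apoa1, 0.77 for Apoa2, -1.63 for Apoa4, 1.38 for Apoc1, 1.06 for Apoc3 and 0.60 for Apoe. In the diet response of W/F minus W/W they were -1.21 for Apoa2 and -0.69 for Apoc3. In that of F/F minus W/W they were -0.91 for Apoa2, -1.35 for Apoa4, -0.87 for Apoa5, -0.41 for Apob, -0.52 for Apoc1 and -1.26 for Apoc3.

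After rescaling the Apob and Mttp differences of the W/F response to T0901317 turned sign, to 0.23 and 0.13.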

How the results depend on the processing

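The number of called genes among the 10 stayed within 1.5 times its reported value in all 16 contrasts with a pseudocount of 0.1 TPM, a filter of 5 TPM and each library left out. Left-out libraries gave 3 to 3, 6 to 7 and 5 to 5 calls for T0901317 in W/W, W/F and F/F, and 3 to 5, 5 to 6 and 5 to 7 for the diet. With no filter, T0901317 in F/F gave 3 calls in place of 5. With only the libraries compared it gave 3, the W/W diet change 1 in place of 4, and W/F against W/W on chow 0 in place of 1 (limma; 2 genes, Apob and Apoc1, had an unadjusted p under 0.05, and Apoc1 an adjusted p of 0.397). After rescaling, the W/F difference of diet responses gave 7 in place of 2; the cause was not tested.

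Rescaling changed the sign of 25 of 160 log2 values, of which 10 were called under either scaling: Apob and Mttp with T0901317 in W/F (0.15 and 0.56), Apoc1 with the diet in W/F (-0.23), Apob and Apoc2 in W/F against W/W on vehicle (-0.31 and -0.56), Apoa1 and Apob with T0901317 in F/F against W/W (-0.16 and -0.42), Apob and Mttp in the W/F difference of T0901317 responses (0.23 and 0.13), and Apob in the W/F difference of diet responses (-0.49). Only the scaling differs between these values and those as deposited. A further 25 values gained a call and 8 lost one. The 160 values kept their call with the other pseudocount. Over single omissions, 33 values lost a call, 23 gained one and 1544 kept theirs, and each change is named with its gene.

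Replicate numbers gave little sign of pairing over all genes. Across groups, same-numbered livers correlated at a median of 0.013 (144 pairs, -0.174 to 0.297) and others at -0.0064 (432 pairs). Of 36 livers, 11 correlated best with their own number. Replicate 1 had 32.3, 35.7, 34.4, 29.0 and 34.2 M recovered reads in F/F chow, F/F T0901317, W/F vehicle, W/W chow and W/W T0901317. In the other groups replicate 1 had 20.7 to 24.8 M, and no other library exceeded 27.6 M. A batch shared by number was not tested. With the replicate block, the calls were 4 in place of 3 for T0901317 in W/W (Apoc3, adjusted p = 0.0332), 7 in place of 6 for the diet in W/F (Apob, 0.0458) and 7 in place of 6 for F/F on chow (Apoa1, 0.0380), and no other call changed. None of the 72 ratio comparisons passed after adjustment. Their mean log2 differences moved by less than 1 SD between replicates with 1 TPM added to each gene and in all 576 single omissions, where the test was not repeated.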
